A study of Mus musculus with 12 samples.

Results

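Adipocyte genes are a set of 10 genes used as markers of fat cells, and they were followed here in hind paw and whole DRG tissue of mice. The set was chosen by symbol, as Adipoq, Cfd, Car3, Plin1, Plin4, Cidec, Lep, Fabp4, Retn and Pparg, out of 22609 gene symbols, with their normalized counts in both tissues and their spread between libraries already known. These levels and their spread are therefore given as a description, with no test. All 10 genes were listed in each of the 12 RNA-seq libraries.

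The libraries were made from C57BL/6J mice, 3 from female hind paw, 3 from male hind paw, 3 from female whole DRG (dorsal root ganglia) and 3 from male whole DRG. According to the labels the mice were 8 to 14 weeks old and all groups received 20 µl of saline in the paw, whereas the methods describe naïve mice, females being in estrous phase, at an age of 8 to 12 weeks. The methods also describe perfused mice, lumbar ganglia, and a punch biopsy of paw skin that included part of the fat under the dermis and was meant to leave muscle untouched. Between 6866545 and 13470783 reads were counted on genes in a hind paw library, and between 8988497 and 13327072 in a DRG library, the lowest total being that of male hind paw library 2.

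White adipocytes store triglyceride in a single large lipid droplet and release fatty acids from it by lipolysis. They also secrete hormones, the adipokines, that act on brain, liver, muscle and immune cells. Skin holds a layer of such cells beneath the dermis, and fat also lies around peripheral nerves and ganglia, in the epineurium and the epidural space.

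The tissues carried the markers of their labels. All 10 sensory neuron markers and all 7 Schwann cell markers tested were higher in whole DRG by edgeR (quasi-likelihood fit, adjusted p under 0.05 by Benjamini-Hochberg), where 85.7% of all 15666 genes were called (86.2% at an unadjusted p under 0.05, 84.6% with DESeq2) and 50% had a positive log2 fold change. Epidermis and hair follicle markers were higher in hind paw in 7 of 7 and 10 of 10 genes, but only 5 and 2 of them passed the filter on low counts (at least 10 reads in at least 3 libraries) in whole DRG, as 8 of the 10 sensory neuron markers did in hind paw, so these directions are a description. All 14 skeletal muscle markers were higher in hind paw, although the biopsy was meant to avoid muscle. Female DRG library 1 stood apart for the adipocyte genes, and the main values that rest on it are given with and without it. Within hind paw, female library 3 was the lowest library for 6 of the 10 genes.

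Adipoq encodes adiponectin, an adipokine secreted almost only by adipocytes, and lies on chromosome 16 of mm9 (23146609 to 23158101, plus strand). Its normalized counts, which are read counts divided by a median-of-ratios size factor for each library, were 201, 149 and 172 in male hind paw libraries 1 to 3 and 174, 227 and 93.8 in female hind paw. In whole DRG they were 65.0, 67.0 and 52.5 in males and 313, 43.8 and 89.3 in females. Female DRG library 1 had more Adipoq than any hind paw library, and the other 5 DRG libraries all lay below the lowest hind paw library. In bulk tissue, fewer adipocytes and less RNA per adipocyte cannot be told apart.

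Cfd encodes adipsin (complement factor D), a serine protease of the alternative complement pathway that is made in large amounts by fat (chromosome 10, 79353598 to 79355401, plus strand). Normalized counts of Cfd were 596, 346 and 413 in male hind paw and 482, 437 and 167 in female hind paw. DRG libraries had 183, 166 and 198 in males and 1245, 148 and 225 in females. The normalized count of Cfd in female DRG library 1 was 5.54 times that of the next DRG library, and female hind paw library 3 fell within the range of the remaining DRG libraries.

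Retn encodes resistin, an adipokine of mouse fat that acts on insulin sensitivity (chromosome 8, 3655770 to 3660110, plus strand). Its normalized counts were 42.9, 32.5 and 48.3 in male and 57.6, 48.7 and 29.6 in female hind paw. Whole DRG had 29.6, 10.8 and 23.5 in males and 105, 14.6 and 24.2 in females. Apart from female DRG library 1, the DRG libraries reached just short of the lowest hind paw library.

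Lep encodes leptin, the adipokine that reports fat stores to the hypothalamus (chromosome 6, 29010220 to 29023877, plus strand). Its normalized counts were 17.0, 22.3 and 10.5 in male hind paw and 8.50, 28.9 and 6.91 in female hind paw. Among DRG libraries they were 4.93, 3.59 and 0 in males and 5.90, 1.72 and 4.20 in females. Lep was the least abundant of the 10 genes, with at most 32 reads in a hind paw library and at most 6 in a DRG library, and female DRG library 1 was close to the other DRG libraries here. The count of 0 in male DRG library 3 allows a normalized count of up to 3.35, from counting error only. Lep did not pass the filter of at least 10 reads in at least 3 libraries in whole DRG and was not tested there.

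Plin1 encodes perilipin 1, the coat protein of the adipocyte lipid droplet that controls access of lipases (chromosome 7, 86866050 to 86877662, minus strand). Normalized counts of Plin1 were 163, 159 and 105 in male and 136, 149.8 and 85.9 in female hind paw. In DRG libraries they were 34.5, 53.9 and 31.3 in males and 189.8, 32.7 and 62.0 in females. Cidec, which encodes a droplet protein that promotes fusion into large droplets, lies on chromosome 6 (113374628 to 113385754, minus strand). Its normalized counts were 96.3, 83.9 and 78.1 in male and 100.1, 103 and 31.6 in female hind paw. Whole DRG libraries had 37.8, 37.1 and 36.9 in males and 220.3, 32.7 and 57.8 in females. The 3 male DRG libraries were nearly equal for Cidec, while female DRG library 1 exceeded every hind paw library for both genes and female hind paw library 3 was the lowest hind paw library for both.

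Plin4 encodes perilipin 4, a coat protein of nascent droplets that is also made in muscle and heart (chromosome 17, 56240014 to 56249225, minus strand). It shares 6 exon bases with Hdgfrp2 on the opposite strand, and the strand setting of the counting is not given in the sources used here. Normalized counts of Plin4 were 624, 995 and 1001 in male and 1170.5, 879 and 927 in female hind paw, and 211, 245 and 215 in male and 512, 309 and 283 in female whole DRG. Every hind paw library lay above every DRG library, and every female DRG library lay above every male DRG library.

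Fabp4 encodes the fatty acid binding protein of adipocytes, which is also found in macrophages and capillary endothelium (chromosome 3, 10204347 to 10208576, minus strand). Its normalized counts were 454, 565 and 612 in male and 581, 585 and 493 in female hind paw. DRG libraries held 226, 206 and 145 in males and 837, 136 and 258 in females. Hind paw libraries differed by 1.35-fold at most for Fabp4, the smallest range of the 10 genes in that tissue, while DRG libraries differed by 6.16-fold.

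Pparg encodes the nuclear receptor that drives adipocyte differentiation and is also made in macrophages and sebocytes (chromosome 6, 115311239 to 115440419, plus strand). Its normalized counts were 97.1, 75.4 and 109.7 in male and 88.7, 100.1 and 79.0 in female hind paw. In DRG libraries they were 28.0, 32.3 and 27.9 in males and 54.1, 30.1 and 36.8 in females. Female DRG library 1 was again the highest DRG library, by 1.47-fold over the next, and stayed below the lowest hind paw library.

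Car3 encodes carbonic anhydrase 3, an enzyme abundant in adipocytes and in slow skeletal muscle fibers (chromosome 3, 14863538 to 14872351, plus strand). Its normalized counts were 4357, 12531 and 8506 in male and 6989.8, 2767 and 8764 in female hind paw. In whole DRG they were 480.3, 341 and 227 in males and 1602, 339 and 500.2 in females. The hind paw libraries differed by 4.53-fold and all lay above the DRG libraries.

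**Figure D1:**
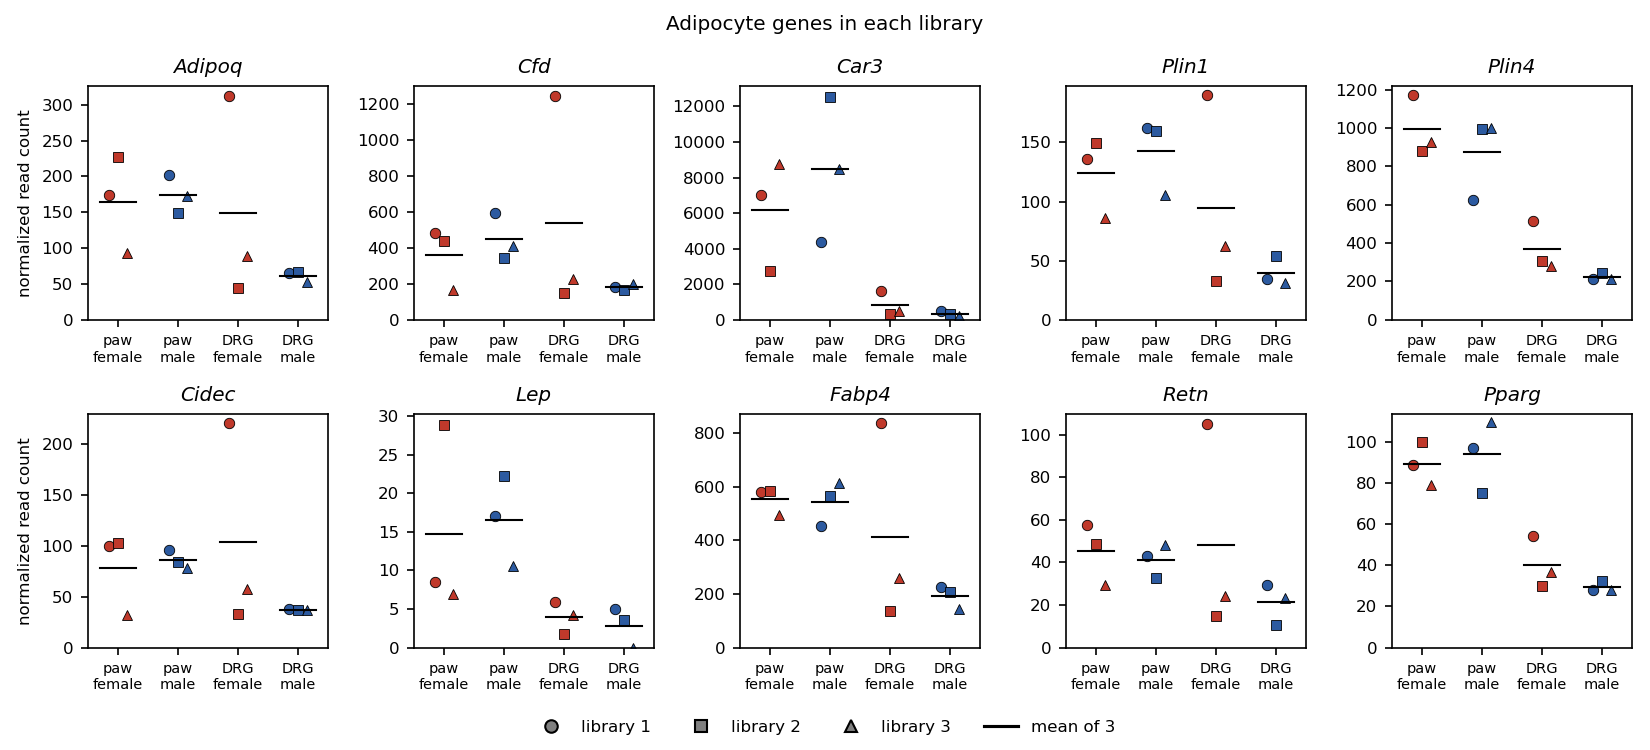
Normalized read counts of the 10 adipocyte genes (vertical axes, each from 0) in female and male hind paw and whole DRG libraries, with a point for each library and a line for the mean of 3. Female DRG library 1 (red circle) is the highest DRG library in all 10 panels and exceeds every hind paw library in 6 of them. For Lep it is close to the other DRG libraries.

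Compared per length, as RPKM over the union of exons, Car3 was the most abundant of these genes in hind paw, with a median of 479.9 over 6 libraries (171 to 776). Fabp4 followed with a median RPKM of 84.0 and Cfd with 42.9, and the ranges of Car3, Fabp4 and Cfd did not overlap. The next genes were Plin4 (median RPKM 15.6) and Adipoq (11.7), whose ranges overlapped, with Plin4 higher in 4 of 6 libraries. Plin1 (median RPKM 6.96) was above Cidec (4.53) in all 6 libraries, and Cidec and Pparg (4.37) could not be ordered. Retn (median RPKM 2.69) and Lep (0.383) were lowest by median. The range of Retn lay below that of Pparg and overlapped that of Cidec, and Lep lay below Retn in all 6 libraries.

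In whole DRG the RPKM order began with Fabp4, at a median of 31.7 (19.9 to 123), followed by Car3 at 25.4 (14.1 to 99.2) and Cfd at 19.2 (14.95 to 126), and the ranges of these genes overlapped. Adipoq and Plin4 had median RPKM of 4.46 and 4.28, and Plin1 and Cidec had 2.15 and 1.88, with Cidec the higher of them in 4 of 6 libraries. Pparg (median RPKM 1.47) and Retn (1.41) could not be ordered, each being higher in 3 of 6 libraries, and Lep was lowest at 0.108.

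The median normalized count in hind paw exceeded that in whole DRG for each of the 10 genes, from 1.91-fold for Retn to 18.9-fold for Car3. Every hind paw library was above every DRG library for 4 of the 10 genes, Car3, Plin4, Lep and Pparg, and that held for 34.8% of all 15666 genes tested across both tissues. Lep is among the 4 although it failed the filter on low counts in whole DRG and was kept through hind paw alone. Without female DRG library 1, a choice made after seeing the data, it held for 8 of the 10, beside 36.1% of all genes. Adipoq, Plin1, Fabp4 and Retn were added. Retn was separated only narrowly, with 29.63 in the lowest hind paw library and 29.61 in the highest remaining DRG library. For Lep these values were 6.91 and 4.93, from few reads. Cfd and Cidec still overlapped, through female hind paw library 3.

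Female DRG library 1 was the highest of the 6 DRG libraries in each of the 9 genes that passed the filter in whole DRG, as it was in 18.2% of the 14456 genes tested there. It exceeded the next library by at least 1.5-fold in 8 of the 9, against 2.34% of all genes, with Pparg as the exception, and by at least 2-fold in 7, against 0.92% of all genes. Over the 9 genes this ratio ran from 1.47 (Pparg) to 5.54 (Cfd), with a median of 3.24, and it was above 3 for 7 genes. Summed over the 9 genes other than Car3, normalized counts were 820.0, 822 and 729.7 in male DRG libraries and 3482, 748 and 1040.3 in female DRG libraries. Hind paw libraries had summed counts of 2291, 2429 and 2549.5 in males and 2799, 2558 and 1914 in females, below female DRG library 1 in each case. With Car3 included, female DRG library 1 had 5084.3, below the hind paw range of 5324 to 14959.6. The DRG mean of the sum without Car3 was 1274 ± 1088 (SD, n = 6) and became 832 ± 124 (SD, n = 5) without that library, and the hind paw mean was 2423 ± 300.5 (SD, n = 6).

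The spread between DRG libraries was correspondingly wide. The SD of log2 CPM (reads scaled to library size) over the 6 DRG libraries ran from 0.34 for Pparg to 1.15 for Cfd, with a median of 0.96 over the 9 genes, beside a median of 0.14 over all genes tested. Without female DRG library 1 the median over the 9 genes was 0.38, beside 0.12 over all genes. In hind paw the SD ran from 0.17 for Fabp4 to 0.79 for Car3, with a median of 0.40 over the 10 genes and 0.19 over all 14316 genes tested. Without female hind paw library 3 the median over the 10 genes was 0.27, beside 0.18 over all genes. Fabp4 and Pparg (SD 0.20) varied about as much as the middle of all hind paw genes, and Cfd, Cidec, Lep and Car3 varied more than 94.6% of them.

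Within whole DRG, 5 of the genes kept ratios to Adipoq that varied less than 2-fold from library to library. The ratio of Fabp4 to Adipoq lay between 2.68 and 3.48, a 1.30-fold range, while Adipoq itself varied 7.13-fold. The ratio of Cidec to Adipoq varied 1.35-fold, that of Plin1 1.51-fold, that of Cfd 1.60-fold and that of Car3 1.79-fold. The ratio of Plin4 varied 4.30-fold and that of Pparg 3.97-fold, and these became 2.22-fold and 1.67-fold without female library 1, where both genes were less raised. The ratio of Retn varied 2.84-fold with or without that library, and that of Lep went from 0 to 0.0759. Adipoq itself varied 2.04-fold without that library. In hind paw, the ratio to Adipoq varied 1.56-fold for Retn, 1.66-fold for Cfd, 1.71-fold for Cidec, 1.75-fold for Plin1 and 1.91-fold for Pparg. It varied 2.33-fold for Fabp4, 3.05-fold for Lep, 3.19-fold for Plin4 and 7.67-fold for Car3.

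Sequence ahead of the start sites was searched for short patterns in the genes of the set, whether or not their counts varied together. RefSeq windows on GRCm38.p6, of 250 bases before the start, were found for 8 of the 10 genes, and Car3 and Fabp4 had none. They were searched on both strands for TTGCNNAA, a pattern bound by C/EBP factors of the adipocyte program, which occurred in 9.56% of 32851 such windows. Matches were found in 4 of the 11 windows of these genes, 1 each for Plin1, Cidec, Lep and Pparg, and none in the windows of Adipoq, Cfd, Plin4 and Retn. AGGTCA, a half-site of nuclear receptors such as PPARγ, occurred in 14% of all windows and in 2 of the 11, both of Pparg. A longer repeat holds 2 copies of that half-site with any base at position 4 and a single base between them. It was found in 0 of the 11 windows and in 0.338% of all windows. TATAAA, searched on the strand of the gene only, occurred in 0 of the 11 and in 7.59% of all windows. Windows of Plin1 and Lep are shown as genes with a match and that of Adipoq as a gene without, each read 5′ to 3′ on the strand of the gene, with matches to TTGCNNAA in capitals. They lie at chr7:79732777-79733026 (minus strand) for Plin1, chr6:29059971-29060220 (plus strand) for Lep and chr16:23146286-23146535 (plus strand) for Adipoq.
Plin1: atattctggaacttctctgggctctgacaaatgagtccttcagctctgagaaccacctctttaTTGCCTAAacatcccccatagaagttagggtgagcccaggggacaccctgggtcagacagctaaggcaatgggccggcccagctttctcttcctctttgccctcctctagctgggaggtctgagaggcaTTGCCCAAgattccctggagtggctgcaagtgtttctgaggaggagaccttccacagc
Lep: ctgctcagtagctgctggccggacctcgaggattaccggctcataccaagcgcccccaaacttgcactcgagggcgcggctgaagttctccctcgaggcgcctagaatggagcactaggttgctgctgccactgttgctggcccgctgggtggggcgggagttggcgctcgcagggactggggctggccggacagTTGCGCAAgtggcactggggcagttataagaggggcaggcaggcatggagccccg
Adipoq: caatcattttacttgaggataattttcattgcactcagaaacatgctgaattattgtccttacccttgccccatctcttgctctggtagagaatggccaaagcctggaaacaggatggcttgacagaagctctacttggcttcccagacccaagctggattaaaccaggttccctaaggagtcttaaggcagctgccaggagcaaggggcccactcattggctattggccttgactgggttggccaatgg
The matches of Plin1 lie at -187 to -180 and at -58 to -51 relative to the start site. The match of Lep, at -55 to -48, reads the same on both strands. Window 3 of Pparg (chr6:115421816-115422065, plus strand) held a match on each strand, at -215 to -208 and at -16 to -9.
Pparg: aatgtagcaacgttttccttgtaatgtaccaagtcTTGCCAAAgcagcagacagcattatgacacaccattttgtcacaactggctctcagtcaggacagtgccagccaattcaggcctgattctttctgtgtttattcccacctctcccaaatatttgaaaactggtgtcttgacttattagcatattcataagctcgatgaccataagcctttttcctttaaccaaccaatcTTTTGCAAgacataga
These are matches of letters, and binding was not measured in these samples.

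Markers of adipocytes outside the set were examined in the same libraries. Of 10 such genes, 8 passed the filter in whole DRG and 7 of these were highest in female library 1, beside 18.2% of all genes. In 6 of them this was by at least 1.5-fold, beside 2.34% of all genes. Pde3b was highest there by less, with 408 beside 303.5 to 365.7 in the other DRG libraries. Pck1, which encodes the enzyme that starts glyceroneogenesis in fat, had normalized counts of 145, 85.0 and 105 in male DRG and 795, 127 and 164 in female DRG. Lipe, encoding hormone-sensitive lipase, had 119, 132 and 141 in male DRG and 321, 105 and 148 in female DRG. Adig, a small adipocyte gene, failed the filter in whole DRG. Its counts were 4.9, 3.6 and 4.5 in male DRG and 45.2, 8.6 and 9.5 in female DRG. Tusc5, a marker of fat that is also made in sensory neurons, passed the filter but was not highest in female library 1. It had 6404, 5355 and 6160 in male DRG and 4744, 5623 and 6166 in female DRG. It was the most abundant of these markers in whole DRG, and its hind paw counts were only 27.7 to 58.5. Without Tusc5, the 9 other markers summed to 773, 665 and 736 in male DRG libraries, 1943, 690.4 and 856 in female DRG libraries, and 786 to 1358 in hind paw libraries. Ucp1, the uncoupling protein that defines brown fat, had 15.7 in female DRG library 1, 0 to 8.4 in the other DRG libraries and 1.0 to 4.0 in hind paw. It failed the filter on low counts in both tissues.

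**Figure D2:**
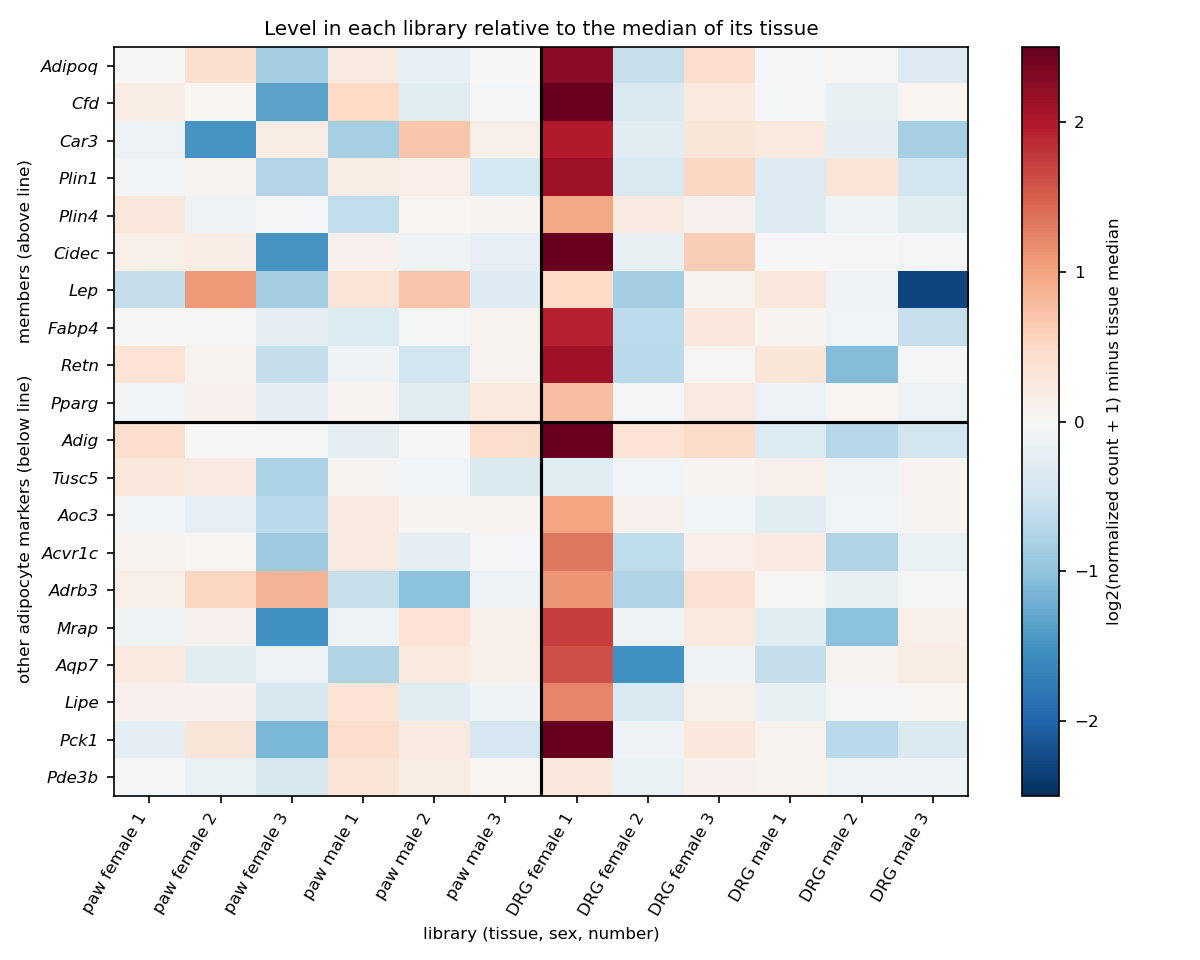
Levels of the 10 adipocyte genes (above the line) and 10 further adipocyte markers (below) in each of the 12 libraries, as log2 of the normalized count plus 1 minus the median of the tissue. The column of female DRG library 1 is red for all genes except Tusc5, and the column of female hind paw library 3 is blue for most.

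Markers of other cells also differed in female DRG library 1. Macrophage markers were highest there in 8 of the 10 genes tested, beside 18.2% of all genes. They were so by at least 1.5-fold in 4, beside 2.34% of all genes. Their summed normalized count was 4624, beside 2319 to 3446 in the other 5 DRG libraries. Mertk, the most abundant of them in whole DRG, was not highest there, with 682.5 beside 572.4 to 796.5 in the others. Fibroblast and preadipocyte markers were highest there in 8 of 10 genes and by at least 1.5-fold in 1, beside the same shares of all genes. Their sum was 21052, beside 10677 to 14469.5 in the others, with Col1a1 as the most abundant of them in whole DRG. Sensory neuron markers were lowest there in 9 of 10 genes, against 31.8% of all genes tested, with a sum of 105811 beside 126749 to 148322 and Nefm as the most abundant gene. No gene of these 3 lists that the files hold was at 0 in a DRG library. The part of these cells in the height of the adipocyte genes was not tested.

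The genes outside the set whose pattern over the 6 DRG libraries was closest to the mean of the 9 adipocyte genes, by root mean square difference of centered log2 CPM, were Cd36 (0.12), Fcgr4, Pyhin1, Psmb8, H2-K1, Ces1d, AW112010 and C3 (0.28). Cd36, the fatty acid translocase, had normalized counts of 232, 190.3 and 169 in male DRG and 728, 195 and 258 in female DRG. The closest in hind paw were Csrp2 (0.038), Renbp, Asxl3, Spag5, Armcx2, Cpt2, Hist1h2bk and Osm (0.071). Csrp2 had 58.3 in female hind paw library 3 and 82.5 to 92.5 in the other hind paw libraries.

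Female hind paw library 3 was the lowest hind paw library for 6 of the 10 adipocyte genes, Adipoq, Cfd, Plin1, Cidec, Lep and Retn, and for 18.9% of all genes tested in that tissue. It was lowest by at least 1.5-fold for 3 of the 10, against 0.985% of all genes. It was also lowest for 7 of the 10 further adipocyte markers, 9 of 10 macrophage markers and 6 of 9 fibroblast and preadipocyte markers. Summed macrophage markers were 5032 there and 6166 to 11299 in the other hind paw libraries, and summed fibroblast and preadipocyte markers were 43361 there and 47010 to 113877 in the others. The part of these cells in the low adipocyte gene counts was not tested.

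Car3 followed another order in hind paw. The 14 skeletal muscle markers, with Myh1 as the most abundant in hind paw, took 0.435%, 1.89% and 1.52% of the reads on genes in male hind paw libraries and 1.08%, 0.425% and 1.504% in female hind paw libraries. Male library 2 was the highest for both Car3 and the muscle markers, female library 2 was the lowest for both, and male and female libraries 3 came next to the top for both. Adipoq was highest in female hind paw library 2, where muscle markers were lowest. Muscle markers took 0.0113% to 0.238% of the reads in DRG libraries, and only 0.0134% in female DRG library 1, where Car3 was highest. The ratio of Car3 to Adipoq was 5.12 in that library, within the range of the other DRG libraries (4.32 to 7.73), and 12.2 to 93.4 in hind paw. The part of muscle in the hind paw counts of Car3 was not tested.

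**Figure D3:**
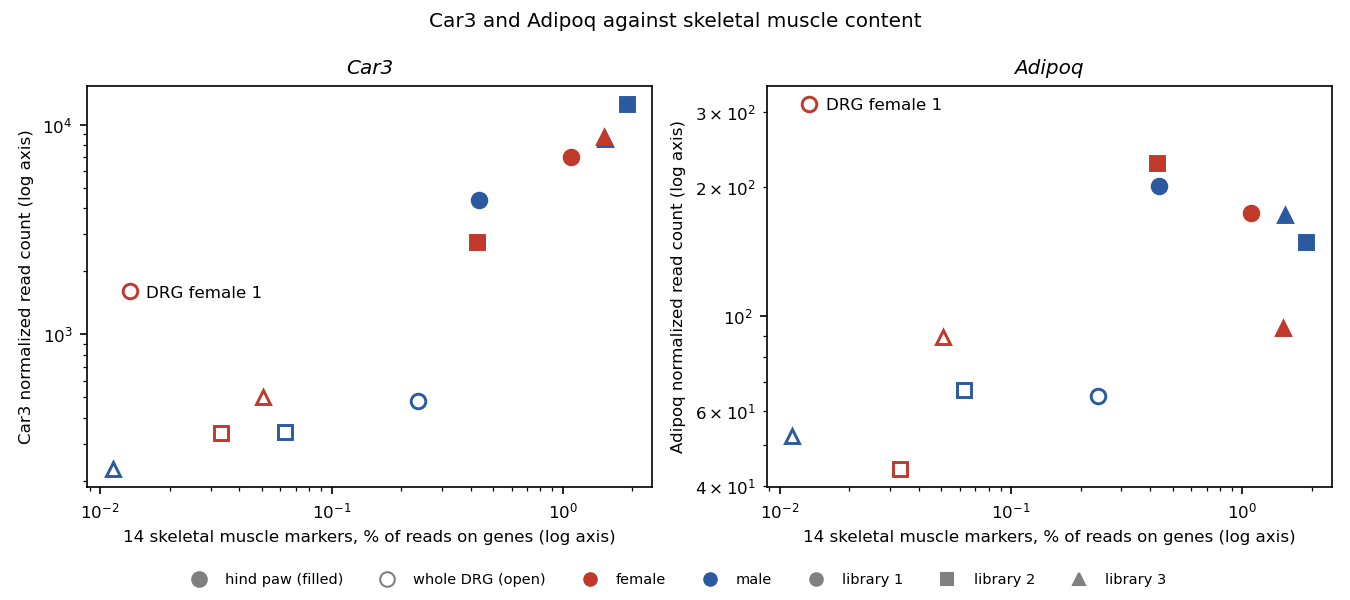
Normalized read counts of Car3 (left) and Adipoq (right) on log axes against the percent of reads on genes taken by 14 skeletal muscle markers, also on a log axis, with a point for each of the 12 libraries. Car3 climbs with the muscle markers across the filled hind paw points and is raised in female DRG library 1 at a muscle share of 0.0134%.

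The study was built to find sex differences, and females were set against males in each tissue. In hind paw the 10 adipocyte genes showed no sex difference that passed the test, and these tests are not independent of the values that chose the genes. The Adipoq mean over 3 libraries was 165 ± 67.2 (SD) for females and 174 ± 26.3 for males. The Plin4 mean was 992 ± 156 for females and 873 ± 216 for males. The libraries of both sexes overlapped for all 10 genes, whereas they did not overlap for 15.2% of all genes tested. In the same comparison the log2 fold changes were negative for 10 of 10 macrophage, 10 of 10 hair follicle and 13 of 14 muscle markers. Those of the adipocyte genes, female minus male, ran from -0.44 for Car3 (95% interval -1.53 to 0.64) to 0.20 for Plin4 (-0.27 to 0.66). Of the 10, edgeR called 0 after Benjamini-Hochberg adjustment over 14316 genes, beside 0.154% of all genes (0.0768% in each direction), and adjusted p-values lay between 0.838 and 0.985. The count was 0 as well at an unadjusted p under 0.05, beside 9.74% of all genes, and 0 with DESeq2, beside 1.47%. The mean was higher in females for 3 of the 10, beside 48.7% of all genes with a positive log2 fold change. Without female library 3 the values of Adipoq, Cfd, Plin1, Cidec and Lep turned from negative to positive, between 0.02 and 0.25.

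In whole DRG all 10 genes had a higher mean in females than in males, with female library 1 as the highest library in each. For Lep, which failed the filter there, this rests on few reads. Female library 1 and male library 1 each had 6 reads of it. The Cfd mean over 3 libraries was 539 ± 612 (SD) for females and 182 ± 15.7 for males. Cidec averaged 104 ± 102 and 37.3 ± 0.501, and Plin4 averaged 368 ± 126 and 224 ± 18.7. Log2 fold changes of the 9 genes tested were all positive, beside 50.5% of all genes, and ran from 0.48 for Pparg to 1.60 for Cfd. The spread that chose the genes holds this library, so that these tests are not independent of the choice. In the same comparison the log2 fold changes were positive for 10 of 10 macrophage and 10 of 10 fibroblast and preadipocyte markers, and negative for 10 of 10 sensory neuron and 14 of 14 muscle markers (median -1.89). Without female library 1 these numbers were 10, 8, 10 and 14, with a muscle median of -1.49. Muscle markers summed to 26043, 6755 and 1221 normalized counts in male DRG libraries and to 1357, 3484 and 5442 in female DRG libraries. Male library 1 was thus the highest for muscle and male library 3 the lowest. With all 6 libraries, edgeR called 0 of the genes in these lists after adjustment. Plin4 was the only gene of the 10 in which the sexes did not overlap, as was the case for 12.3% of all genes tested. Of the 9, edgeR called 0 after Benjamini-Hochberg adjustment over 14456 genes, beside 0.0484% of all genes (0.0208% positive and 0.0277% negative), with adjusted p-values of 0.743 to 0.748. DESeq2 called 0 of them, beside 0.104% of all genes. At an unadjusted p under 0.05 there were 4 of the 9, beside 6.01% of all genes, namely Plin4 (0.00834), Cidec (0.0427), Car3 (0.0471) and Cfd (0.0495).

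Leaving out female DRG library 1 removed most of the difference. The log2 fold changes of the 9 genes then lay between -0.19 for Retn and 0.41 for Plin4, and Cfd went from 1.60 to 0.03, Adipoq from 1.30 to 0.10 and Fabp4 from 1.12 to 0.02. Plin4 had a 95% interval of 0.25 to 1.25 around its log2 fold change of 0.75 with all 6 libraries, and of 0.17 to 0.66 around 0.41 without that library. Its unadjusted p was then 0.00404, and its adjusted p was 0.987 (edgeR, Benjamini-Hochberg). For the other 8 genes the 95% interval without that library included 0, and for Adipoq it reached from -0.55 to 0.74.

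**Figure D4:**
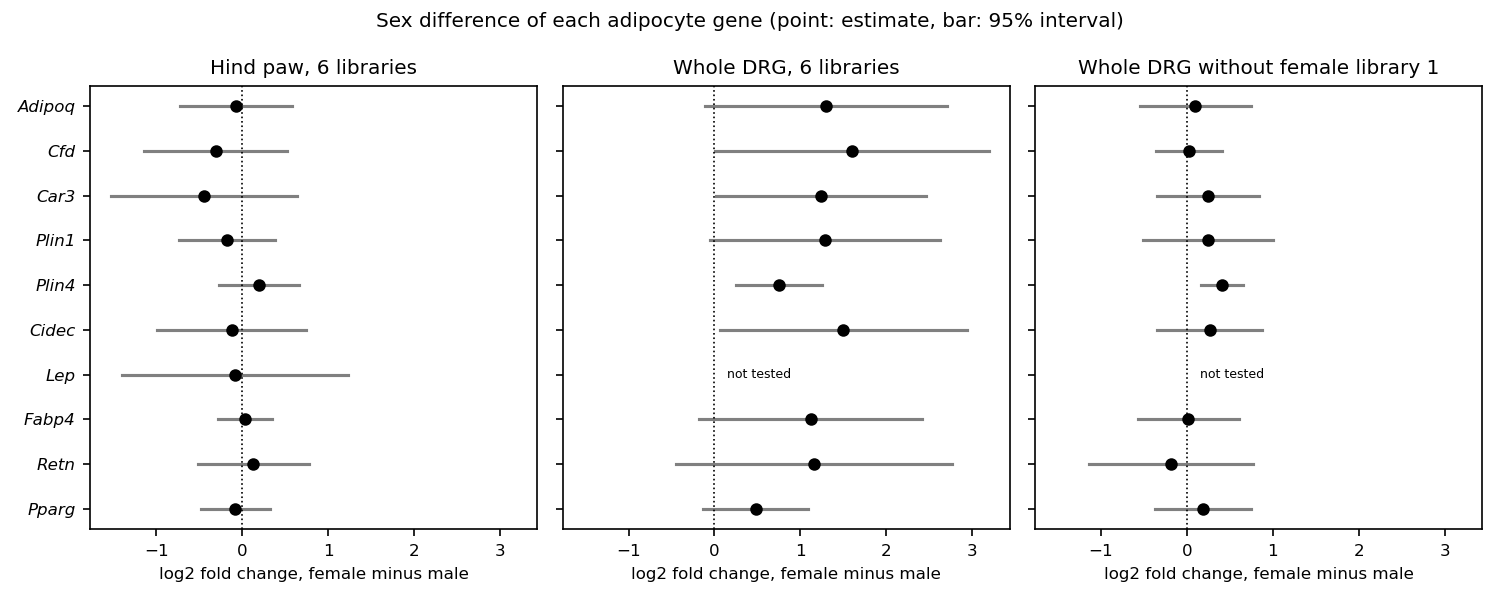
Log2 fold change of each adipocyte gene, female minus male (horizontal axis), in hind paw, in whole DRG and in whole DRG without female library 1, with points for the estimate and bars for the 95% interval. The DRG estimates lie between 0.48 and 1.60 with all 6 libraries and between -0.19 and 0.41 without that library.

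A change of the sex difference from one tissue to the other was examined as an interaction term in a fit of all 12 libraries. This term, the hind paw difference minus the DRG difference, was negative for the 9 genes that passed the filter in whole DRG, beside 47.7% of all genes with a positive term, and ran from -1.89 for Cfd to -0.53 for Plin4. It rests on the same DRG libraries and spread that chose the genes, and is not independent of the choice. For 0 of the 9 was the term called by edgeR with Benjamini-Hochberg adjustment, beside 0.0128% of 15666 genes (0.00638% in each direction). The number was 0 at an unadjusted p under 0.05, beside 7.76% of all genes, and 0 by DESeq2, beside 0.23%. The lowest unadjusted p was 0.058, for Cfd. Without female DRG library 1 the estimate for Cfd was -0.35, and those for Fabp4 and Retn turned positive, to 0.01 and 0.31.

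Genes that act with the adipocyte genes in lipid storage and adipose signaling were compared between hind paw and whole DRG, 74 genes in 8 lists, of which 72 were tested and 69 passed the filter in whole DRG alone. By edgeR with Benjamini-Hochberg adjustment 36 were higher in hind paw and 25 were higher in whole DRG, beside 42.6% and 43.1% of all genes. The median log2 fold change, hind paw minus whole DRG, was 0.46 over the 72 genes and -0.0025 over all genes. Among the transcription factors of adipogenesis, 6 of 10 were higher in hind paw, led by Cebpa (4.78, standard error 0.18) and Cebpb (3.95, 0.26), and 4 were higher in whole DRG, led by the oxysterol receptor Nr1h3 (-2.20, 0.14) and Klf15 (-1.92, 0.14). Cebpa had 2237 to 3506 normalized counts in hind paw, and in whole DRG 186 in female library 1 and 85.1 to 102 in the others.

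For uptake of fatty acids and synthesis of triglyceride, 9 of 15 genes were higher in hind paw and 4 in whole DRG. Dgat2, which catalyzes the last step of triglyceride synthesis, had a log2 fold change of 4.08. The insulin-responsive glucose transporter Slc2a4 had 3.67 and Cd36 had 2.45. Pck1 had -1.92 (-1.26 without female DRG library 1) and the phosphatidate phosphatase Lpin1 -1.28. Slc2a4 was highest in male hind paw library 2 (935.3) and lowest in female hind paw library 2 (372.6), as were Car3 and the muscle markers. The part of muscle in its counts was not tested. Of the genes of fatty acid synthesis, 7 of 10 were higher in whole DRG and 3 in hind paw, beside 43.1% and 42.6% of all genes, and the lists were not tested against each other. Thrsp (-3.54), Scd2 (-2.04), Elovl5 (-1.41) and Acly (-0.99) were higher in whole DRG, and Acacb (2.27), Elovl6 (1.23) and Scd1 (0.52) were higher in hind paw. Scd2, a fatty acid desaturase of neural tissue, had 31219 to 37007 normalized counts in whole DRG and 7169 to 9682 in hind paw.

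Lipolysis genes were split, with 4 of 9 higher in each tissue. Those shares are close to the shares of all genes, 42.6% higher in hind paw and 43.1% in whole DRG. Abhd5 (1.89), the activator of adipose triglyceride lipase, Mgll (1.61), Lipe (1.36) and the lipase Pnpla2 itself (0.86) were higher in hind paw, and the adenosine receptor Adora1 (-2.52), the lipase inhibitor G0s2 (-1.01), Pde3b (-0.87) and Pnpla3 (-0.46) were higher in whole DRG. Of 6 lipid droplet genes tested, 4 were higher in hind paw, Fitm1, Cidea (2.79), Plin2 (1.72) and Fitm2 (0.40), 0 were higher in whole DRG, and 2 did not pass the threshold. Fitm1 passed the filter on low counts through hind paw alone. This gene, which is made in skeletal muscle, had 32.4 to 144 normalized counts in hind paw, highest in male library 2 like Car3, and 1.0 to 9.0 in whole DRG.

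Among other factors secreted by fat, Apln (2.27), Nrg4 (1.86) and Agt (0.40) were higher in hind paw. In whole DRG 5 of 11 were higher, beside 43.1% of all genes. They include Sfrp5 (-3.81), Angptl4 (-2.60), the chemerin gene Rarres2 (-1.72) and Rbp4 (-1.23). Receptors for adipose hormones numbered 4 of 6 higher in hind paw and 0 in whole DRG, beside 42.6% and 43.1% of all genes. Cdh13, the T-cadherin that binds adiponectin, had a log2 fold change of 4.49, the chemerin receptor Cmklr1 2.58, and the adiponectin receptors Adipor1 and Adipor2 0.52 and 0.39. The leptin receptor gene Lepr (-0.06) and the insulin receptor gene Insr (0.02) did not pass the threshold.

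**Figure D5:**
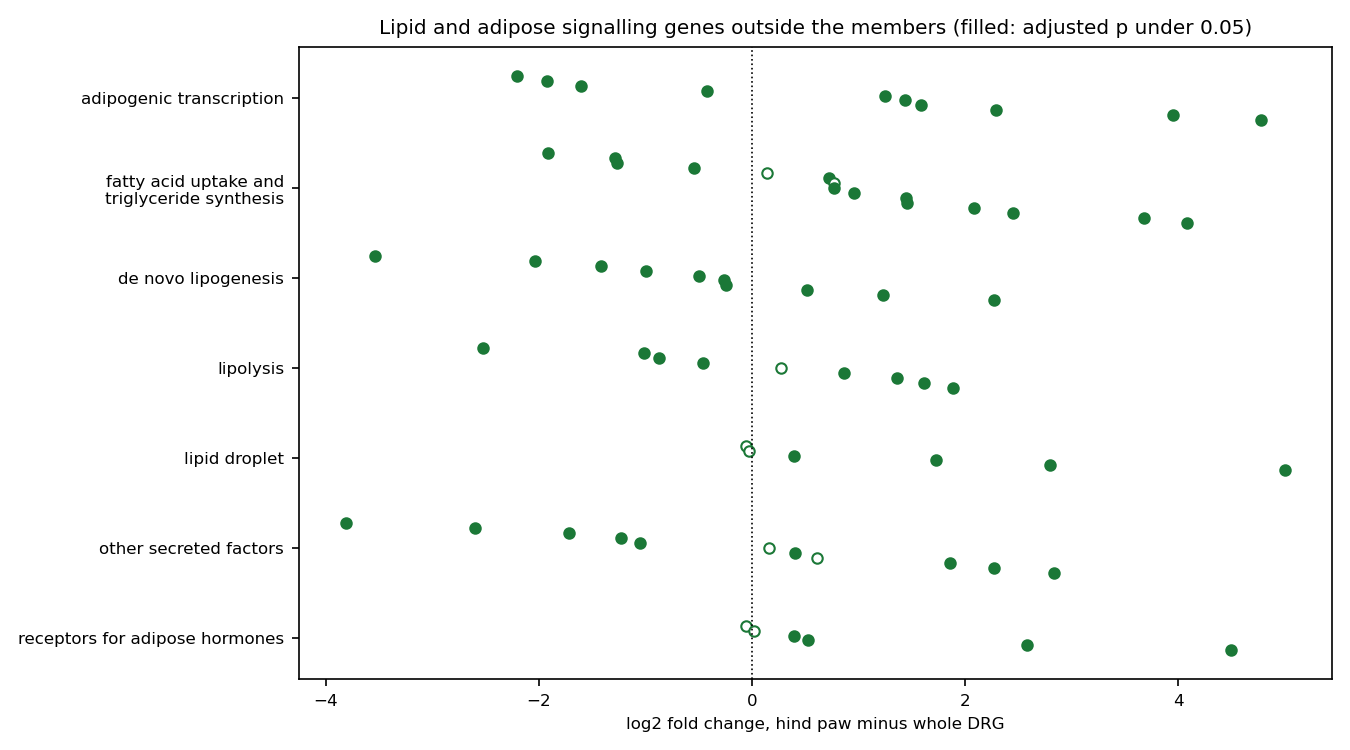
Log2 fold change, hind paw minus whole DRG (horizontal axis), of genes in 7 lists of lipid and adipose signaling outside the set, with a point for each gene, filled where the adjusted p was under 0.05. Lipid droplet genes and hormone receptors have filled points only to the right of 0, and genes of fatty acid synthesis have 7 of 10 to the left.

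Between the sexes, 0 of the 72 genes tested were called in hind paw and 0 of 69 in whole DRG by edgeR with Benjamini-Hochberg adjustment, with 17 and 11 genes at an unadjusted p under 0.05, beside 9.74% and 6.01% of all genes. DESeq2 called 2 in hind paw, beside 1.47% of all genes, and 0 in whole DRG, beside 0.104%. Over the further adipocyte markers alone, the median log2 fold change, female minus male, was -0.11 for 10 genes in hind paw and 0.56 for 8 genes in whole DRG, which became 0.0048 without female library 1.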

How the data were processed

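RNA of hind paw and whole DRG was sequenced in 12 libraries, 3 per sex and tissue. The authors aligned reads to mm9 with TopHat2 and counted them with HTSeq, and deposited these counts without normalization, although the rule that chose the genes calls them normalized counts. Versions and strand setting are not given in the sources used here. The labels name ribosomal RNA depletion and paired reads of 100 bp, and the methods name oligo-dT priming and single reads. Reads in 5 categories outside genes (71.9% to 86.4% of those listed) were left out. Counts were divided by median-of-ratios (RLE) size factors over the 12 libraries. RPKM used exon lengths from the GENCODE annotation of mm9. Sexes were compared by edgeR 4.0.16 (R 4.3.3; quasi-likelihood test, genes with at least 10 reads in at least 3 libraries, Benjamini-Hochberg adjustment over all genes tested, threshold 0.05), and the interaction and the tissue difference over all 12 libraries. The steps were tested on simulated data. Standard errors were taken from the log2 fold change and the F statistic. With 3 libraries per sex, exact permutation reaches a 2-sided p of 0.1 at the lowest.

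The adipocyte genes and the 18 gene lists were chosen with earlier results of these data known. Genes named were all 10 adipocyte genes and any list gene called between the sexes. For the tissue difference, up to 4 called genes per list and direction were named. The most abundant marker of a cell type in the tissue described was named as well. So were the 8 genes closest to the mean pattern of the set in each tissue. Further genes, among them Pck1, Lipe, Adig, Tusc5, Ucp1, Lepr and Insr, were chosen after their values were seen. The list symbols Adgre1 and Flg had no match in the files. The alternatives were DESeq2 1.42.0, TMM, no filter, the replicate number as a block, all 12 libraries in a single fit, and leaving out each library in turn. Levels, spread, overlap, ratios, marker medians and tissue differences without female DRG library 1, spread without female hind paw library 3, and the sum without Tusc5 were added after seeing the data. No library pair of a group held the same counts. Whether hind paw and DRG libraries of the same number came from the same mouse is not given in the labels.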

Additional observations from a re-analysis of the deposited data

How the results depend on the processing

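The number of adipocyte genes called was 0 in both sex comparisons and in the interaction under every alternative run, DESeq2 included. Over all genes, 22 were called between the sexes in hind paw, and 210 with DESeq2, 40 without the filter on low counts, 88 with all 12 libraries in a single fit, 8 with the replicate block and 1 to 8 when each library was left out. In whole DRG 7 were called, and 15 with DESeq2 and 1 to 6 with each library left out. The interaction called 2, and 36 with DESeq2, 4 without the filter, 0 with the replicate block and 0 to 4 with each library left out. The cause of these shifts was not tested. Libraries of the same number did not deviate together in all pairs of any comparison (correlations from -0.347 to 0.249 between the sexes in hind paw and from -0.204 to -0.072 in whole DRG), so the block does not stand for a known pairing. Of the related genes, DESeq2 called 2 and the single fit called 1 as lower in female hind paw, beside 0. Single libraries turned the sign of uncalled differences, not all of them small. With each library left out, the hind paw log2 fold change lay from -0.36 to 0.20 for Adipoq, -0.57 to 0.0300 for Cfd, -0.79 to -0.0420 for Car3, -0.35 to 0.0242 for Plin1, -0.0062 to 0.32 for Plin4, -0.36 to 0.24 for Cidec, -1.01 to 0.25 for Lep, -0.0912 to 0.14 for Fabp4, -0.0814 to 0.35 for Retn and -0.19 to 0.0573 for Pparg. Adipoq, Cfd, Plin1, Cidec and Lep were highest without female library 3. In whole DRG Retn lay from -0.19, without female library 1, to 1.61. The interaction lay from -1.48 to 0.0109 for Fabp4 and -1.45 to 0.31 for Retn, both being highest without female DRG library 1. For Lep it lay from -1.37 to 0.0833. Lep was kept in that fit through hind paw alone, and its DRG part rests on at most 6 reads per library. Related genes higher in hind paw than in whole DRG numbered 34 to 39, and those lower 25, with each library left out. The summed count of the 9 adipocyte genes other than Car3 averaged 832 to 1383 in whole DRG and 2348 to 2525 in hind paw with each library left out. TMM moved the median log2 fold change of a comparison by 0.016 at most. With 3 libraries per group and at most 6 Lep reads in a DRG library, Lep did not pass the filter there. A sex difference of Lep in whole DRG was therefore not tested. Cell numbers were not measured, and a library that stands apart is 1 of 3 in its group.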

Other observations

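Other lists were read in the same tissue comparison, by edgeR with Benjamini-Hochberg adjustment, where 42.6% of all genes were higher in hind paw and 43.1% in whole DRG. Of the brown adipocyte markers, 4 of 7 tested were higher in hind paw and 2 in whole DRG. Of these, Cox7a1 and Cox8b were highest in male hind paw library 2 and lowest in male library 1 and female library 2, as were the muscle markers, and Elovl3 is also a sebaceous gland marker. Only 5 of the 8 listed passed the filter on low counts in whole DRG, and Elovl3 and Cox8b were kept through hind paw alone. Sebaceous gland markers were higher in hind paw in 6 of 7 genes, of which list only 2 passed the filter on low counts in whole DRG. Fibroblast and preadipocyte markers were higher in hind paw in 8 of 10 genes and macrophage markers in 9 of 10. Endothelial markers were higher in hind paw in 5 of 9 genes and in whole DRG in 1. Of the further adipocyte markers, 3 of 10 were higher in hind paw (Acvr1c, Lipe and Aoc3) and 3 in whole DRG (Tusc5, Pck1 and Pde3b). Without female DRG library 1 the number higher in hind paw was 5, by Adig and Aqp7, which failed the filter in whole DRG.

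Some of the genes closest to the mean pattern of the adipocyte genes in whole DRG are given with their counts. H2-K1, a class I histocompatibility gene, had 2308 normalized counts in female DRG library 1 and 647 to 735 in the other 5 DRG libraries. Psmb8, a subunit of the immunoproteasome, had 527 there and 90.5 to 160.4 in the others, and complement C3 had 2232 there and 616 to 835 in the others. Fcgr4, an Fc receptor of myeloid cells, had 58.0 there and 9.6 to 15.6 in the others. Ces1d, a carboxylesterase of liver and fat, had 154 there and 25.5 to 52.5 in the others. These genes were chosen for this pattern, and no test was made of it.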
